A study of Mus musculus with 6 samples.

Results

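The 10 genes used to identify dendritic cells (Flt3, Zbtb46, Xcr1, Clec9a, Batf3, Itgae, Cd209a, Irf4, Ccr7 and Siglech) were followed in RNA-seq of peritoneal macrophage preparations from WT and FOXO3 KO mice. They were matched by symbol, and 10 of 10 were found among the 54648 symbols of the deposited table of estimated counts. RNA came from 3 libraries labelled WT and 3 labelled FOXO3 KO. The study describes its mice as homozygous WT or FOXO3 KO, of strain C57BL/6, 6-8 weeks old, male and female, and fed standard chow. They received an intraperitoneal injection of thioglycollate, an irritant that recruits monocytes into the cavity. Both groups carried this treatment, so no untreated peritoneum was measured. The knockout was not restricted to macrophages. Harvested cells were pelleted and the study describes no sort, so a library can hold any cells the lavage contained. The study calls the cells mostly macrophages and judged the few other immune cells insignificant. Libraries are called WT 1, 2 and 3 and FOXO3 KO 1, 2 and 3, and values are listed in that order.

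Dendritic cells take up antigen in tissues, travel to lymph nodes and present it to T cells. They develop from bone marrow precursors under the cytokine FLT3 ligand, and fall into conventional type 1 cells, which specialize in cross-presentation to CD8 T cells, conventional type 2 cells, which mainly prime CD4 T cells, and plasmacytoid cells, which secrete type I interferon. In the inflamed peritoneum they are a minority beside macrophages, and monocytes can take on part of their program. In bulk RNA, fewer cells of a type and less RNA per cell cannot be told apart.

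Library totals were between 28083393 and 36424117 counts, and levels are given as CPM (counts as a share of the library total, scaled by TMM, a factor that evens out composition). The targeted gene, Foxo3, stood at 117, 107 and 73.1 CPM across WT 1 to 3 and at 4.71, 104 and 4.29 CPM across FOXO3 KO 1 to 3. The library labelled FOXO3 KO 2 therefore carried Foxo3 at the WT level, against its label, and each member is given with and without it. WT 3 stood apart in another way, by Pearson's r of log2 CPM across genes, which are not independent replicates. For WT 3 with the other libraries r was between 0.929 and 0.956. Each other library had an r of 0.988 or more with its closest library, and the highest was 0.994. The 12 macrophage markers summed to between 15109 and 19857 CPM in WT and between 16712 and 18732 CPM in FOXO3 KO, so the labelled cell type was present in each library, and its defining markers Adgre1 and Csf1r were at 693 CPM or more. By Xist level, 1 library was high and 2 were low in each group.

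The upstream sequence is shown for Siglech and Xcr1, whose groups did not overlap, and for Flt3, whose groups overlapped through FOXO3 KO 2 alone, since FOXO3 is a transcription factor with a known DNA motif. The windows run from 250 to 11 bases upstream of the RefSeq start site, on GRCm38.p6, 5′ to 3′ on the strand of the gene, and capitals mark a match to any of 5 motifs searched on both strands. Itgae and Ccr7 were not in the table of windows.

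Siglech (chr7:55767934-55768173, plus strand): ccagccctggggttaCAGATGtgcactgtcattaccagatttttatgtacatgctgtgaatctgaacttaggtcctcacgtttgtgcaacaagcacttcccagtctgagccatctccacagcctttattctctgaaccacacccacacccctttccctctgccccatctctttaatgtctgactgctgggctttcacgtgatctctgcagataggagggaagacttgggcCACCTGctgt
Xcr1 (chr9:123862040-123862279, minus strand): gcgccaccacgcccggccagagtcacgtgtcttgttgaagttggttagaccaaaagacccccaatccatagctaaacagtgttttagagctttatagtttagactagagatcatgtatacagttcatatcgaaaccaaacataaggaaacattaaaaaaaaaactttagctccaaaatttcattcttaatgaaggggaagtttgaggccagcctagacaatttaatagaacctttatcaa
Flt3 (chr5:147400500-147400739, minus strand): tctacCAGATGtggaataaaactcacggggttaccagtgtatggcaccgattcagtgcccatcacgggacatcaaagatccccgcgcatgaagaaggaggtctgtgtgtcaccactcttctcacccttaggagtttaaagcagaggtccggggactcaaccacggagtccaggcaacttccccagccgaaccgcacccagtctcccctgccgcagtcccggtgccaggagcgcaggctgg

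The motifs were GTAAACA for FOXO factors, GAGGAAGT for PU.1, TGANTCA for AP-1 and BATF, GAAANNGAA for IRF factors and CAGNTG for E proteins, the family of the plasmacytoid regulator TCF4. None of the 8 members with a window held the FOXO motif, which was present in 3.06% of 32851 windows of the same length. The PU.1 motif (2.29% of windows) and the IRF motif (6.82%) were likewise in 0 of 8. The AP-1 and BATF motif was found in 1 of 8 members, Zbtb46, at -61 to -55 from a start site that lies inside the annotated gene, against 6.58% of all windows. The E protein motif was in 5 of 8 members (Flt3, Zbtb46, Clec9a, Cd209a and Siglech), against 43.6% of all windows, and Siglech held it at -235 to -230 and at -20 to -15. No match in a member overlapped another. The FOXO, PU.1 and IRF motifs were each in a small share of all windows, so 0 of 8 cannot set the members apart from other genes. These are matches of letters and say nothing of binding.

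The question of the design was which genes differ between FOXO3 KO and WT peritoneal macrophages. Of the 10 dendritic cell genes, 8 had a positive log2 fold change (FOXO3 KO over WT) and 2, Ccr7 and Irf4, a negative one. The median of the 10 was 0.61, beside -0.01 over the 15608 genes tested, and it was 0.66 without FOXO3 KO 2 and 0.68 without WT 3. With the quasi-likelihood test of edgeR, adjusted over all genes by Benjamini-Hochberg (FDR), 0 of 10 members were called at an FDR under 0.05 and a fold change over 1.5, and the background was 0.00% (0 of 15608 genes; smallest FDR 0.714). At an unadjusted p under 0.05, 3 of 10 members were higher in FOXO3 KO (Siglech, Itgae and Xcr1), where 4.04% of all genes were, and 0 were lower, where 1.65% were. DESeq2 gave 0 of 10 members an adjusted p under 0.05 and put 0.941% of 17318 genes past it in the higher direction, and edgeR's likelihood ratio test likewise called 0 members and 0.654% of genes in that direction. In 3 of 10 members (Siglech, Itgae and Xcr1) every FOXO3 KO library was above every WT library, a pattern shown by 7.00% of all genes, and in 0 members was every FOXO3 KO library below, shown by 5.36%. Both counts rest on the same 3 genes, and the members were chosen with earlier results of these data known. The counts describe the members and are not an independent test.

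**Figure D1:**
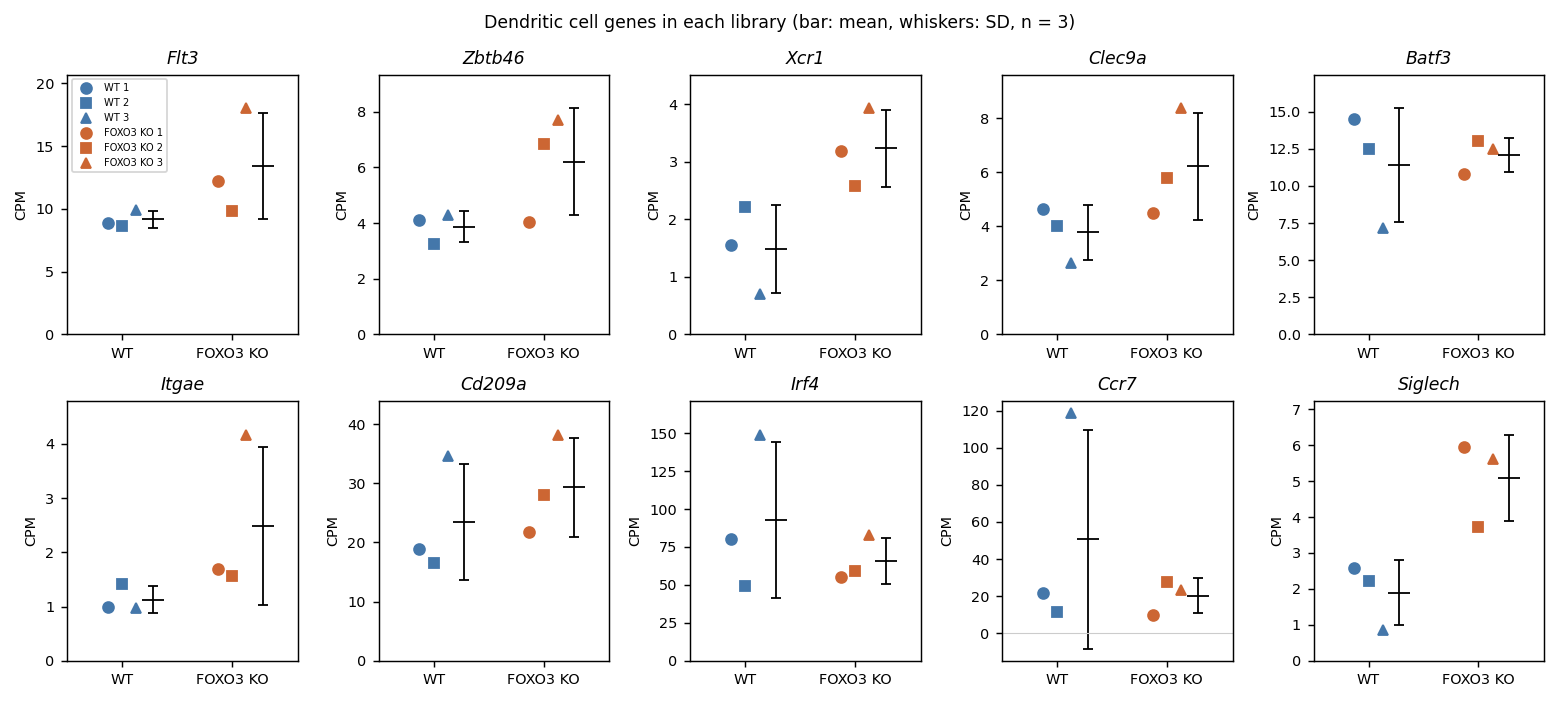
Level in CPM (vertical axis, a separate scale in each panel) of the 10 dendritic cell genes in WT (blue) and FOXO3 KO (orange) libraries, with circles, squares and triangles for replicates 1, 2 and 3, and a bar and whiskers for the mean and SD (n = 3). The FOXO3 KO libraries lie above the WT libraries in Xcr1, Itgae and Siglech, and WT 3 lies far above the others in Ccr7 at 119 CPM.

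Without the library labelled FOXO3 KO 2, 16217 genes were tested, 0 were called by edgeR's quasi-likelihood test, and 3 members had an unadjusted p under 0.05 (Flt3, Itgae and Siglech), beside 3.05% of all genes in that direction. FOXO3 KO 1 and 3 were then above all WT libraries in 4 of 10 members (Flt3, Xcr1, Itgae and Siglech), and in 11.0% of all genes. Without WT 3, 4 members had such a p (Zbtb46, Xcr1, Cd209a and Siglech), beside 6.15% of 15788 genes. The highest of the 6 libraries was FOXO3 KO 3 for 6 members, and the lowest was WT 3 for 5 and WT 2 for 4. Without FOXO3 KO 3 the median of the members was 0.36 and 0 members had an unadjusted p under 0.05 by edgeR's quasi-likelihood test. Without FOXO3 KO 1 the members with such a p were Zbtb46, Clec9a and Itgae, all higher, and without WT 1 it was Siglech alone, higher. Without WT 2 they were Xcr1 and Siglech, both higher, and Irf4, which was lower. The share of all genes under that p was not counted without FOXO3 KO 1, FOXO3 KO 3, WT 1 or WT 2, so these counts of members have no background.

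**Figure D2:**
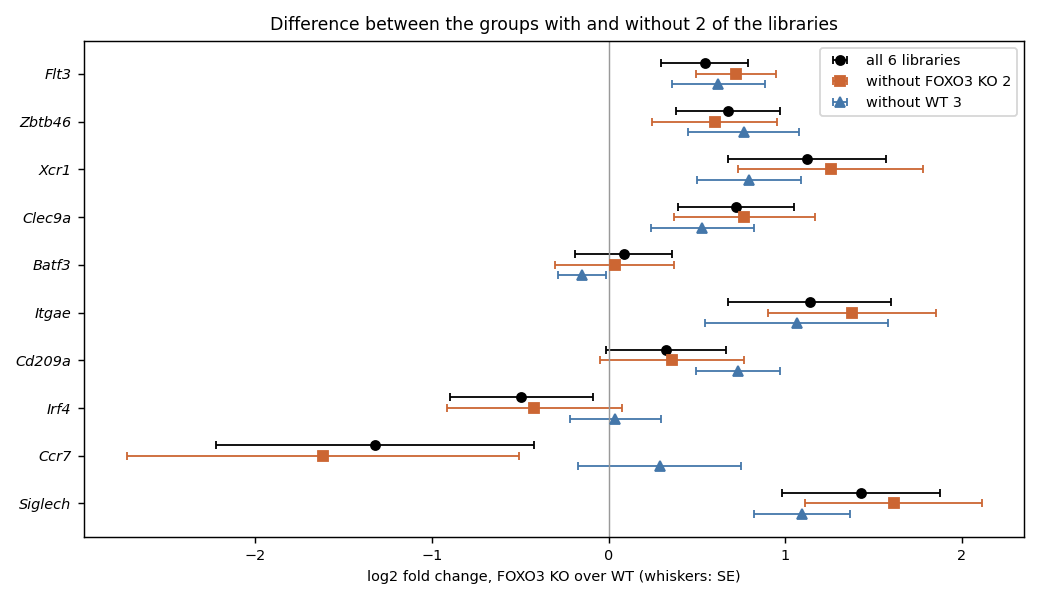
Log2 fold change of FOXO3 KO over WT (horizontal axis, whiskers for the SE) of each of the 10 genes, fitted over all 6 libraries (black), without FOXO3 KO 2 (orange) and without WT 3 (blue). Ccr7 moves from -1.32 to 0.29 without WT 3, while Siglech is at 1.43, 1.61 and 1.10.

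Flt3 and Zbtb46 are shared by conventional dendritic cells and their precursors. Flt3 (chr5:147330741-147400489, minus strand) encodes the receptor tyrosine kinase for FLT3 ligand, on which dendritic cell development depends. Its level was 8.89, 8.65 and 9.95 CPM across WT 1 to 3 and 12.2, 9.85 and 18.0 CPM across FOXO3 KO 1 to 3. WT libraries were close together, FOXO3 KO 3 was high, and FOXO3 KO 2 lay just below WT 3, so the groups overlapped by that library alone. The groups differed by 0.54 ± 0.24 on the log2 scale (SE; edgeR FDR = 0.839), and by 0.72 ± 0.23 without FOXO3 KO 2 (unadjusted p under 0.05, FDR = 0.994).

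Zbtb46 (chr2:181387762-181459426, minus strand) encodes a zinc finger transcription factor that marks the conventional dendritic cell lineage and is low in macrophages. Its level was 4.10, 3.25 and 4.28 CPM across WT 1 to 3 and 4.04, 6.86 and 7.71 CPM across FOXO3 KO 1 to 3. FOXO3 KO 1 lay within the WT range and the other two FOXO3 KO libraries above it. The difference was 0.68 ± 0.29 on the log2 scale (edgeR FDR = 0.839), and 0.60 ± 0.35 without FOXO3 KO 2 (FDR = 0.994).

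Xcr1, Clec9a, Batf3 and Itgae belong to type 1 conventional dendritic cells. Xcr1 (chr9:123852315-123862029, minus strand) encodes the receptor for the chemokine XCL1, through which these cells meet NK cells and CD8 T cells. It stood at 1.55, 2.22 and 0.699 CPM across WT 1 to 3 and at 3.19, 2.59 and 3.93 CPM across FOXO3 KO 1 to 3. The groups did not overlap, and WT 3 was the lowest, with 25 counts (exact Poisson 95% interval 16.2 to 36.9, for counting error alone). The means were 1.49 ± 0.76 and 3.24 ± 0.67 CPM (SD, n = 3), which gave a log2 fold change of 1.12 ± 0.45 (SE; unadjusted p under 0.05, FDR = 0.839 from edgeR) and an exact two-sided permutation p = 0.10, the smallest that 3 against 3 libraries can give. Without FOXO3 KO 2 the difference was 1.26 ± 0.52 (edgeR FDR = 0.994), and without WT 3 it was 0.80 ± 0.30 (FDR = 0.555).

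Clec9a (chr6:129408862-129424763, plus strand) encodes a C-type lectin (DNGR-1) that senses actin exposed on dead cells and aids cross-presentation. Its level was 4.65, 4.02 and 2.66 CPM across WT 1 to 3 and 4.50, 5.80 and 8.36 CPM across FOXO3 KO 1 to 3. FOXO3 KO 1 lay between WT 1 and WT 2, so the groups overlapped, and WT 3 was the lowest as for Xcr1. On the log2 scale the difference was 0.72 ± 0.33 (edgeR FDR = 0.839), and 0.77 ± 0.40 without FOXO3 KO 2 (FDR = 0.994).

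Batf3 (chr1:191097847-191108945, plus strand) encodes the AP-1 family factor required for development of type 1 cells, and activated macrophages and T cells express it too. It was at 14.5, 12.5 and 7.16 CPM across WT 1 to 3 and at 10.8, 13.0 and 12.5 CPM across FOXO3 KO 1 to 3. WT 3 was low and the other 5 libraries lay together, with WT 1 the highest. Between the groups it differed by 0.09 ± 0.27 on the log2 scale (edgeR FDR = 0.950), which changed sign to -0.15 ± 0.14 without WT 3, and without FOXO3 KO 2 it was 0.03 ± 0.34.

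Itgae (chr11:73090583-73147446, plus strand) encodes the integrin alpha E chain (CD103), which pairs with integrin beta 7 to bind E-cadherin and is carried by tissue type 1 cells and by mucosal T cells. Its level was 0.997, 1.41 and 0.978 CPM across WT 1 to 3 and 1.70, 1.57 and 4.17 CPM across FOXO3 KO 1 to 3. The groups did not overlap, but FOXO3 KO 1 and 2 stood close to WT 2, and FOXO3 KO 3 carried most of the difference. Counts were low, at 40 in WT 2 (exact Poisson 95% interval 28.6 to 54.5) and 43 in FOXO3 KO 2 (31.1 to 57.9), so these libraries could not be told apart at this depth. The log2 fold change was 1.14 ± 0.46 (edgeR FDR = 0.839), 1.38 ± 0.48 without FOXO3 KO 2 (FDR = 0.994) and 0.54 without FOXO3 KO 3, and the exact two-sided permutation p was 0.10.

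Cd209a and Irf4 are associated with type 2 conventional cells and with dendritic cells that arise from monocytes. Cd209a (chr8:3743397-3748984, minus strand) encodes a C-type lectin of the DC-SIGN family that binds mannose-rich glycans. It stood at 18.9, 16.6 and 34.6 CPM across WT 1 to 3 and at 21.7, 28.0 and 38.2 CPM across FOXO3 KO 1 to 3. The groups overlapped through WT 3, which was above FOXO3 KO 1 and 2. The log2 fold change was 0.32 ± 0.34 over all libraries (edgeR FDR = 0.872), 0.36 ± 0.41 without FOXO3 KO 2 (FDR = 0.994) and 0.73 ± 0.24 without WT 3 (unadjusted p under 0.05, FDR = 0.519).

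Irf4 (chr13:30749226-30766976, plus strand) encodes an interferon regulatory factor that directs type 2 cells, and B cells, plasma cells and alternatively activated macrophages use it as well. Its level was 80.0, 49.0 and 149 CPM across WT 1 to 3 and 55.5, 59.1 and 82.9 CPM across FOXO3 KO 1 to 3. WT 3 was the highest, and the FOXO3 KO libraries lay within the range of the WT libraries. Its log2 difference was -0.49 ± 0.41 (edgeR FDR = 0.856), -0.42 ± 0.50 without FOXO3 KO 2 and 0.04 ± 0.26 without WT 3, so the sign rested on WT 3.

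Ccr7 (chr11:99144196-99155077, minus strand) encodes the receptor for CCL19 and CCL21 that leads mature dendritic cells, naive T cells and B cells into lymph nodes. It stood at 21.6, 11.6 and 119 CPM across WT 1 to 3 and at 9.78, 27.8 and 23.1 CPM across FOXO3 KO 1 to 3. WT 3 was far above the others, and the remaining 5 libraries of the groups were interleaved. The log2 fold change was -1.32 ± 0.90 (edgeR FDR = 0.844), -1.62 ± 1.11 without FOXO3 KO 2 (FDR = 0.994) and 0.29 ± 0.46 without WT 3 (FDR = 0.921).

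Siglech (chr7:55768178-55778925, plus strand) encodes a sialic acid-binding lectin on plasmacytoid dendritic cells that signals through the adaptor DAP12, and some tissue macrophages carry it. Its level was 2.58, 2.22 and 0.867 CPM across WT 1 to 3 and 5.95, 3.72 and 5.61 CPM across FOXO3 KO 1 to 3. The groups did not overlap, and the library labelled FOXO3 KO 2 was the lowest of its group. The means were 1.89 ± 0.90 and 5.09 ± 1.20 CPM (SD, n = 3), with a log2 fold change of 1.43 ± 0.45 (SE; unadjusted p under 0.05, edgeR FDR = 0.755). It was 1.61 ± 0.50 without FOXO3 KO 2 (FDR = 0.994), 1.10 ± 0.27 without WT 3 (FDR = 0.513) and 1.36 without FOXO3 KO 3, while the exact two-sided permutation p was 0.10. The smallest adjusted p among the members by DESeq2 was also for Siglech, at 0.136.

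Levels were compared between members per kb of exon, since longer transcripts give more reads. Over the 6 libraries, Ccr7 had the highest mean at 17.9 ± 20.9 CPM per kb (SD), followed by Cd209a at 16.7 ± 5.53 and Irf4 at 16.2 ± 7.51. Their ranges overlapped, and Ccr7 was above Cd209a in 1 of 6 libraries, WT 3, without which its mean was 9.49. Batf3 followed at 7.36 ± 1.59 CPM per kb and lay below Irf4 and above Flt3 in 6 of 6 libraries.

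Flt3 at 1.82 ± 0.58, Clec9a at 1.52 ± 0.59 and Siglech at 1.03 ± 0.59 CPM per kb had overlapping ranges, each above the next in 5 of 6 libraries. Zbtb46 at 0.592 ± 0.21, Xcr1 at 0.531 ± 0.26 and Itgae at 0.394 ± 0.26 were the lowest and overlapped in range, with Zbtb46 above Xcr1 and Xcr1 above Itgae in 4 of 6 libraries. Length by the longest transcript in place of all exons raised Batf3 to 10.6, Flt3 to 2.85 and Zbtb46 to 0.949 CPM per kb. It also raised Siglech to 1.52 CPM per kb, level with Clec9a, so the order of Clec9a and Siglech depended on the length used. The 10 genes summed to between 112 and 329 CPM in WT and between 129 and 205 CPM in FOXO3 KO, and Irf4 and Ccr7 made up between 50.5% and 81.4% of that sum. Counts in genes that share sequence depend on how reads were shared: 4.63% of the 31-base words of Clec9a occurred in 1 other gene, 3.32% of those of Xcr1 in 2019 others, and under 1% of those of each other member.

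**Figure D3:**
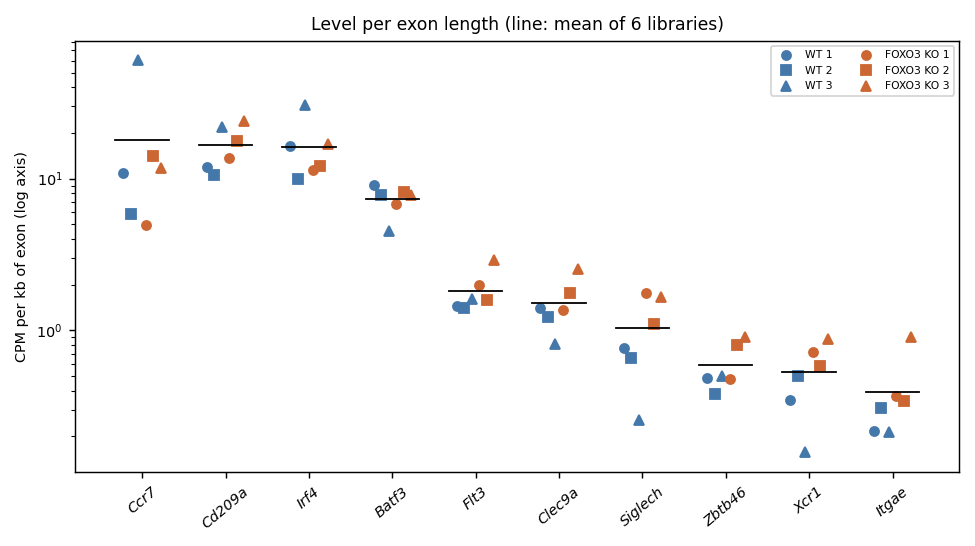
Level per kb of exon (vertical log axis, CPM per kb) of the 10 genes in each library, in order of the mean over 6 libraries (black line), with WT in blue and FOXO3 KO in orange. Ccr7, Cd209a and Irf4 share the top, and Itgae is the lowest with a mean of 0.394.

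Other genes of the same cell subsets were read from lists chosen with earlier results of these data known. Their counts beside the share of all genes describe these lists and are not an independent test. At an unadjusted p under 0.05 from edgeR, 4.04% of all genes were higher in FOXO3 KO and 1.65% were lower. The share higher was 3.05% without FOXO3 KO 2 and 6.15% without WT 3. For type 1 cells, 15 further genes were tested, of which 11 were higher in FOXO3 KO, 5 with an unadjusted p under 0.05 from edgeR (Tlr3, Cadm1, Ifi205, Sept3 and Ppt1), and 0 were lower at that threshold. Without FOXO3 KO 2 the count was 3 (Tlr3, Cadm1 and Sept3), and without WT 3 it was 6. In 7 of the 15 the FOXO3 KO libraries all lay above the WT libraries, as in 7.00% of all genes, and the median log2 fold change was 0.28, with 0.34 without FOXO3 KO 2 and 0.43 without WT 3. Tlr3, the sensor of double-stranded RNA that type 1 cells carry in endosomes, was at 19.0, 20.1 and 15.8 CPM across WT 1 to 3 and at 26.3, 25.0 and 30.4 CPM across FOXO3 KO 1 to 3. Its log2 fold change was 0.57 ± 0.14, with FDR = 0.714 from edgeR. Tlr3 was above the type 1 marker Xcr1 (0.699 to 3.93 CPM) in every library, and which cells carried it was not tested. Cadm1, an adhesion molecule of type 1 cells that is also widely expressed by other cells, was at 20.1, 22.9 and 9.06 CPM across WT 1 to 3 and at 49.4, 31.8 and 31.3 CPM across FOXO3 KO 1 to 3, a log2 fold change of 1.11 ± 0.38 (FDR = 0.788). Sept3, a septin in the study's own gene panel from these samples and so not independent evidence, differed by 1.45 ± 0.41 (FDR = 0.714) and Ifi205, an interferon-induced gene, by 0.72 ± 0.26 (FDR = 0.827). The most abundant genes of this list, Wdfy4 (-0.46 ± 0.38) and Rab7b (0.16 ± 0.44), did not pass that threshold.

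For type 2 cells, 13 of 14 further genes were tested, 10 were higher and 0 had an unadjusted p under 0.05 in either direction, with a median log2 fold change of 0.27. That median was 0.04 without FOXO3 KO 3 and 0.15 without WT 3, where 2 genes had such a p, both higher (Tmem176a and Tmem176b). Ccr2, the chemokine receptor by which monocytes and type 2 cells leave the blood, was at 482, 370 and 218 CPM across WT 1 to 3 and at 571, 484 and 812 CPM across FOXO3 KO 1 to 3, so the groups did not overlap, with a log2 fold change of 0.80 ± 0.34 (edgeR FDR = 0.839). Sirpa, an inhibitory receptor that macrophages carry as well, differed by 0.28 ± 0.41. Esam was at 1.13 CPM in FOXO3 KO 2 and at 0.319 CPM or less in every other library, and did not pass edgeR's filter on low counts.

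For the mature state, 16 of 18 further genes were tested, 8 in each direction, with a median of -0.02, which was 0.39 without WT 3. Those with an unadjusted p under 0.05 from edgeR were 2, both higher, where 4.04% of all genes were. They were Cacnb3, a calcium channel subunit of migratory dendritic cells, and Apol7c, an apolipoprotein L family gene of activated type 1 cells. Cacnb3 was at 2.55, 1.48 and 0.559 CPM across WT 1 to 3 and at 4.61, 4.12 and 9.05 CPM across FOXO3 KO 1 to 3 (log2 fold change 1.95 ± 0.60, FDR = 0.752). Apol7c was at 0.222, 0.247 and 0.028 CPM across WT 1 to 3 and at 0.673, 0.657 and 1.98 CPM across FOXO3 KO 1 to 3 (2.74 ± 0.79, FDR = 0.714). In both genes the groups did not overlap, WT 3 was the lowest and FOXO3 KO 3 the highest, the reverse of Ccr7 for WT 3. Without WT 3 the count was 5, with Fscn1, Cd40 and Socs2 added, beside 6.15% of all genes higher at that p. Fscn1, an actin-bundling protein of mature dendritic cells, turned from -0.999 to 1.84 ± 0.42 without WT 3 (FDR = 0.50, edgeR). The abundant Cd83 (0.23 ± 0.30) and Tmem123 (-0.25 ± 0.19) did not pass that threshold, and Ccl17 and Il12b, at 0.60 CPM or less, were not tested.

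For plasmacytoid cells, 16 further genes were tested, 8 in each direction, with a median of -0.09 (0.16 without WT 3). An unadjusted p under 0.05 from edgeR was found for 4, all higher: Klk1, a kallikrein (1.66 ± 0.45), Bst2, the tetherin antigen (0.24 ± 0.09), Cox6a2, a cytochrome c oxidase subunit (1.30 ± 0.50), and Irf7, the regulator of type I interferon (0.36 ± 0.14), each with an FDR of 0.714 or more. Over all genes, 4.04% were higher at that p. Without FOXO3 KO 2 the count was 1, Klk1, beside 3.05% of all genes. Klk1 was at 0.690 CPM or less in every library, and the abundant Tlr7 (0.06 ± 0.13) and Lair1 (0.47 ± 0.44) did not pass the threshold. Among genes listed as shared by dendritic cells, 12 further genes were tested, 4 higher and 8 lower, with a median of -0.13. Without WT 3 the median was 0.03, and 2 genes had an unadjusted p under 0.05, both higher, beside 6.15% of all genes. Id2, an inhibitor of E proteins needed by type 1 cells, was the only one of the 12 with such a p over all 6 libraries (0.50 ± 0.14, FDR = 0.714, edgeR). It was at 68.2, 63.6 and 75.4 CPM across WT 1 to 3 and 88.5, 115 and 90.1 CPM across FOXO3 KO 1 to 3. Which cells carried Id2 was not tested. Irf8 (-0.12 ± 0.20) and Csf2rb (-0.03 ± 0.30), the most abundant, did not pass that threshold.

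Over these 5 lists together, 72 genes were tested, 12 had an unadjusted p under 0.05 by edgeR's quasi-likelihood test, all higher in FOXO3 KO, where 4.04% of all genes were, and DESeq2 gave 0 of the 72 an adjusted p under 0.05. The count was 7 without FOXO3 KO 2, beside 3.05% of all genes, and 19 without WT 3, beside 6.15%. Without FOXO3 KO 2 the medians were 0.20 for type 2, 0.02 for mature, -0.21 for plasmacytoid and -0.17 for shared genes. Several list genes that B cells use as well were highest in WT 3, and they were picked after their values were seen: Spib was at 259 CPM there and at most 51.8 CPM elsewhere, and Btla at 224 CPM there and at most 45.7 CPM elsewhere. Their log2 fold changes of -1.98 and -2.01 were -0.43 and -0.44 without WT 3.

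Ligands and partners of the 10 genes, with 13 of 15 tested, had a median log2 fold change of 0.14 (0.15 without FOXO3 KO 2) and 1 gene with an unadjusted p under 0.05 from edgeR, Etv6, a repressor that acts with IRF8 in type 1 cells (0.27 ± 0.10, FDR = 0.839). Of all genes, 4.04% were higher at that p and 1.65% were lower. Without FOXO3 KO 2 the count of partner genes was 0, beside 3.05% of all genes higher, and without WT 3 the median was 0.02. The FLT3 ligand gene Flt3l was at 21.2, 18.3 and 35.2 CPM across WT 1 to 3 and at 17.5, 17.7 and 23.1 CPM across FOXO3 KO 1 to 3. Xcl1 was at 0.949 CPM or less, and the CCR7 ligands Ccl19 and Ccl21a were at 0.073 CPM or less and at 0, which left both untested. Tyrobp (DAP12), the signalling partner of Siglech, differed by 0.02 ± 0.29 and the kinase Syk by -0.28 ± 0.15, with its FOXO3 KO libraries all below WT. MHC class II and antigen-processing genes, 12 tested, had a median of 0.02 and 0 with an unadjusted p under 0.05, with Cd74, the invariant chain, at 0.02 ± 0.33 and Ctss, the protease that degrades it, at 0.13 ± 0.44; the median was -0.21 without FOXO3 KO 2.

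**Figure D4:**
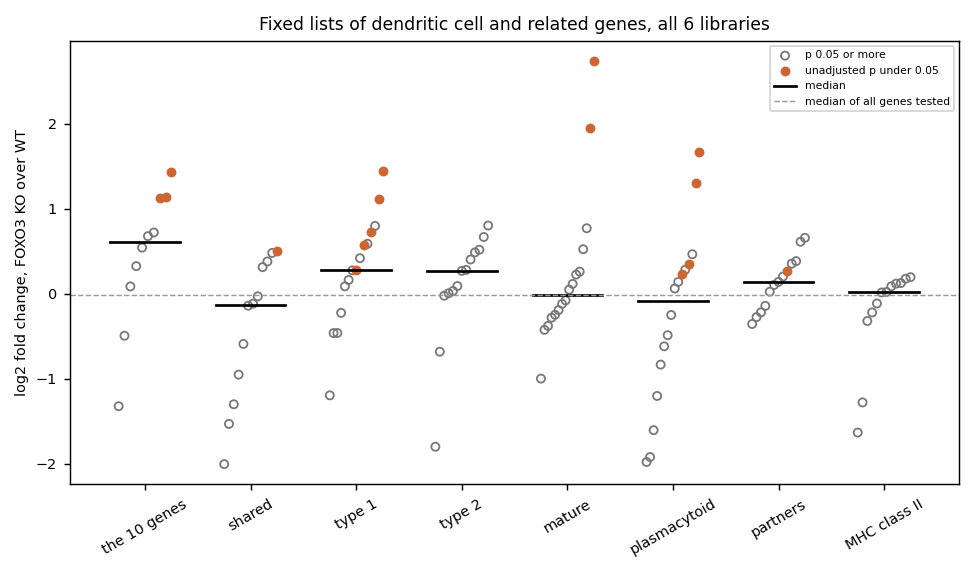
Log2 fold change of FOXO3 KO over WT (vertical axis, all 6 libraries) of the 10 genes and of the tested genes in 7 lists. The lists were chosen with earlier results of these data known. Points are filled where the unadjusted p from edgeR was under 0.05. A black line marks each median and a dashed line the median of all genes tested. The medians run from -0.13 for shared genes to 0.28 for type 1 genes, beside 0.61 for the 10 genes, and each filled point is above 0.

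Markers of other cell types moved across the same libraries. The 8 B cell markers were all negative, with a median log2 fold change of -1.87 (-1.76 without FOXO3 KO 2, -0.48 without WT 3), and summed to between 799 and 5771 CPM in WT and between 361 and 1367 CPM in FOXO3 KO, the highest in WT 3. The defining marker Cd79a was at 548 CPM in WT 3, where Irf4 and Ccr7 peaked, and at 0 in no library. T cell markers, 9 of 10 negative, had a median of -0.91 (-0.76 without FOXO3 KO 2, 0.18 without WT 3), summed to between 56.5 and 168 CPM in WT and between 56.0 and 79.2 CPM in FOXO3 KO, and Cd3e reached 12.7 CPM in WT 3. The part of B and T cells in the levels of Irf4 and Ccr7 was not tested.

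Mast cell markers, 8 of 8 negative, had a median of -0.80 (-0.46 without FOXO3 KO 2, 0.17 without WT 3) and summed to between 131 and 831 CPM in WT and between 107 and 305 CPM in FOXO3 KO, with Cpa3 and Kit above 0 in every library. Neutrophil markers, 7 of 12 tested and all 7 positive, had a median of 0.73 (1.12 without FOXO3 KO 2, 0.46 without WT 3, 0.35 without FOXO3 KO 1 and 1.11 without WT 2) and summed to between 126 and 195 CPM in WT and between 194 and 467 CPM in FOXO3 KO. S100a8 was at 83.2, 12.9 and 59.8 CPM in FOXO3 KO 1, 2 and 3 and at 11.3 CPM or less in WT, and Csf3r, the G-CSF receptor gene and the most abundant of the list, differed by 0.24 ± 0.12. DESeq2 gave 3 neutrophil markers (Cxcr2, S100a8 and S100a9) an adjusted p under 0.05. All 3 are in the study's own gene panel from these samples and so are not independent evidence. The defining marker Ly6g was at 0.12 CPM or less in every library and at 0 in WT 2 and WT 3. Mesothelial and fibroblast markers, 7 of 8 tested and all 7 positive, had a median of 2.17 (1.24 without FOXO3 KO 2). They summed to between 30.5 and 55.8 CPM in WT and between 62.9 and 350 CPM in FOXO3 KO, the highest in FOXO3 KO 2. DESeq2 gave 3 of them (Krt19, Wt1 and Col1a1) an adjusted p under 0.05, and these 3 are in the same panel. The defining marker Msln was at 0.224 CPM or less and at 0 in 3 libraries.

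NK cell markers had a median of 0.18, -0.10 without WT 3 and 0.52 without WT 2 (sums of 27.3 to 56.7 CPM in WT and 42.4 to 46.7 CPM in FOXO3 KO), with Ncr1 at 1.76 CPM or more, and eosinophil markers, 4 of 8 tested, one of 0.17, -0.08 without FOXO3 KO 3 and -0.04 without WT 3 (76.1 to 112 CPM in WT and 53.0 to 113 CPM in FOXO3 KO), with Prg2 and Epx at 0.182 CPM or less. The most abundant eosinophil markers, Il5ra and Ccr3, went opposite ways in WT 3. Il5ra was highest there, at 80.2 CPM, and Ccr3 lowest, at 8.92 CPM, so the sum and median join unlike genes. Macrophage markers had a median of 0.13. Neutrophil, mesothelial and fibroblast markers were higher in the same group as Siglech, Xcr1 and Itgae, and their part in those differences was not tested.

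**Figure D5:**
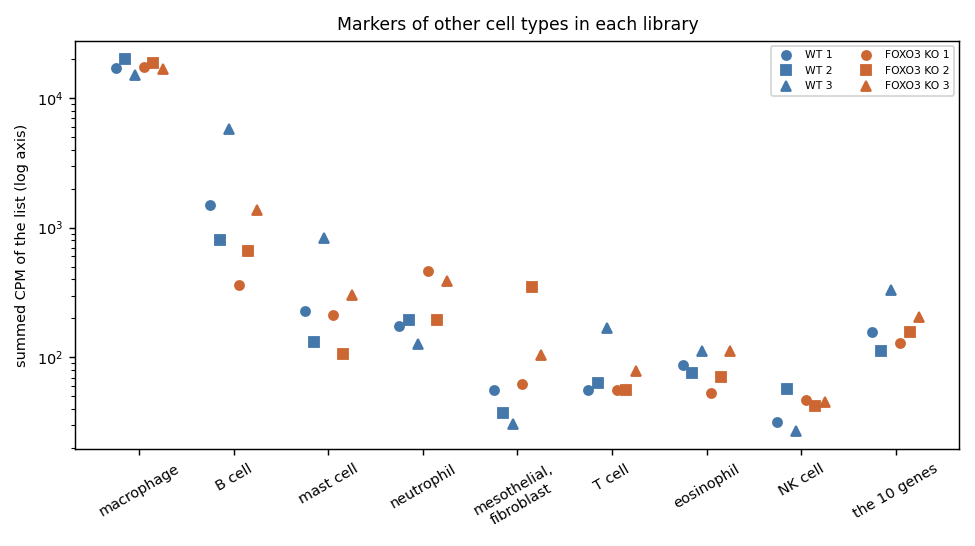
Summed CPM (vertical log axis) of the markers of 8 other cell types and of the 10 genes in each library, with WT in blue, FOXO3 KO in orange and symbols for replicates. WT 3 is the highest in B cell (5771 CPM), mast cell and T cell markers, and FOXO3 KO 2 in mesothelial and fibroblast markers (350 CPM).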

How the data were processed

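Reads of 76 bp from both ends were assigned to genes by the authors, who deposited estimated counts per gene symbol without normalization; the submitters' processing notes name mm10, STAR 2.6.1d, kallisto 0.46.0 and DESeq2 with no role, and no annotation is stated. Of these deposited values 81.4% were whole numbers to within 0.01, and testing used the rounded table. Groups were compared with edgeR 4.0.16 (R 4.3.3; filterByExpr, TMM, glmQLFit and glmQLFTest) over all 6 libraries, and p-values were adjusted over all genes tested. They measure the spread between libraries, and the study does not state that each library was a single mouse. Exact permutation tests used log2(CPM + 0.5), with no adjustment over members. Alternatives were the likelihood ratio test, DESeq2 1.42.0, limma-voom (limma 3.58.1), other scalings and filters (at least 10 counts in 3 libraries, or none), a replicate block, the Xist split as a covariate, and libraries left out. The quasi-likelihood, likelihood ratio, DESeq2 and limma-voom fits of 3 against 3 libraries were also run on simulated counts with known changes. No library was simulated to stand apart as WT 3 or FOXO3 KO 2 did, and the outcome is not reported here. The members and the 15 other lists, with the rule from which named genes were drawn (Foxo3, the members and, from each list, the 2 most abundant genes, up to 4 with an unadjusted p under 0.05, those too low to test and the defining markers; not every such gene is named), were chosen with earlier results of these data known. Ppt1, Flt3l, Xcl1 and genes named for a fit without a library, and the genes called picked after their values were seen, are named outside it. Exon lengths and positions came from GENCODE M21 on GRCm38, and promoter windows from RefSeq on GRCm38.p6. The remaining tables were made in Python 3.11.15 (scipy 1.17.1, pandas 2.3.3, numpy 2.4.6).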

Additional observations from a re-analysis of the deposited data

How the results depend on the processing

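The count of members called was 0 under each of 18 alternatives. In the whole table the quasi-likelihood test of edgeR called 0 of 15608 genes, with 630 higher and 257 lower at an unadjusted p under 0.05, and 0 with any library left out; the likelihood ratio test called 109, DESeq2 167 (107 without FOXO3 KO 2), and the fit without WT 3 and FOXO3 KO 2 called 4. The median of the members lay between 0.36 (without FOXO3 KO 3) and 0.76 with 1 library left out. Members whose groups did not overlap numbered between 3 and 5 with 1 library left out and 5 without WT 3 and FOXO3 KO 2. Smaller groups separate more easily, so these counts cannot be set beside the 3 members over all 6 libraries. With libraries left out, the share of all genes was counted only without FOXO3 KO 2, where 11.0% had FOXO3 KO above WT. The smallest exact permutation p was 0.20 with 1 library left out and 0.333 without both. Only members whose groups do not overlap reach it, so its counts were the same. Without WT 3, Ccr7 turned to 0.29, Irf4 to 0.04 and Batf3 to -0.15 on the log2 scale, and without WT 3 and FOXO3 KO 2 Irf4 was at 0.10 and Batf3 at -0.21; with 1 library left out these ranged from -1.79 to 0.29, from -0.79 to 0.04 and from -0.15 to 0.30. The other 7 members kept their sign in 18 of 18 alternatives. With the Xist split as a covariate the median was 0.58 and 5 members had an unadjusted p under 0.05. The share of all genes under that p was not counted for this fit or for a replicate block. It was also not counted without FOXO3 KO 1, FOXO3 KO 3, WT 1 or WT 2. Such counts of members therefore have no background beside them. Not every same-numbered pair deviated together (r of 0.339, -0.0612 and 0.567), so the numbers were not taken as pairs; with a replicate block edgeR called 0 genes, the median of the members was 0.57, and Siglech alone had an unadjusted p under 0.05 (log2 fold change 1.52, FDR = 0.710). With 3 libraries a group, an exact test cannot go below 0.10, and Xcr1, Itgae and Siglech rest on 25 to 187 counts a library.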
